A study of Homo sapiens with 6 samples.

Results

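The comparison described here is BEAS-2B cells given 1 ng/mL TGF-β1 against untreated BEAS-2B cells. BEAS-2B is an immortalized human bronchial epithelial cell line of non-tumour origin. The members are the 2 libraries that carry these labels, of 6 in all, and every one of the 25737 gene entries counted in them was used. The other 4 libraries are BEAS-2B cells at 5 ng/mL and A549 cells, a human lung carcinoma epithelial line, at 0, 1 and 5 ng/mL. All cells were labelled wild type. Treated cells were exposed for 48 h, from 24 h after seeding, in RPMI1640 with 1% serum, antibiotics and sodium pyruvate, and growth medium held 10% serum. The labels do not say which medium the control cells were in, so the effects of TGF-β1 and of a change in serum cannot be told apart if the controls stayed in growth medium. RNA was read from transcript 3′ ends with the QuantSeq kit. Each condition had 1 library, so no difference has a replicate check, no test was possible and no p-value is given.

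TGF-β1 is a secreted growth factor that binds a pair of receptor kinases, TGFBR1 and TGFBR2, which phosphorylate SMAD2 and SMAD3. These join SMAD4, enter the nucleus and switch on genes for matrix, for contractile proteins and for the pathway's own inhibitors. In airway epithelium the pathway is known for driving cells away from the epithelial state and towards matrix production, and for restraining growth and inflammation.

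The control library held 4252712 counts and the 1 ng/mL library 4601813. A normalized count is a count scaled to a common library size with trimmed mean (TMM) factors. Ratios below are ratios of normalized counts, and the range in brackets after each is its exact 95% Clopper-Pearson interval, which covers counting error only and not the spread between cultures. A gene was read when log2(normalized count + 1) reached 7 in at least 1 of the 2 libraries, about 113 counts in either, and it was called higher or lower when its fold change, with a pseudocount of 1, was at least 2. The fold limit and the minimum on normalized log2 values are taken from the study's methods, whereas the scaling, the pseudocount and a minimum in either library were chosen here. Log2 fold changes carry the pseudocount of 1 and understate the change of low genes.

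More genes were lower than higher at 1 ng/mL. Of 6681 genes that reached the minimum, 988 (14.8%) were past the limits, 378 (5.66%) higher and 610 (9.13%) lower. These counts depend on the minimum: with the minimum required in both libraries 448 of 5394 genes were past the limits, and with the minimum on log2(CPM + 1), where CPM is counts scaled to the library total, 272 of 1899. The shares of 5.66% higher and 9.13% lower are the background for the counts of every gene list below. The median log2 fold change over the 6681 genes was 0.01, and the middle 50% of genes lay between -0.44 and 0.39. Scaling by total counts alone lowered the median of all genes by 0.13 and changed the split to 307 higher and 819 lower genes. Upper quartile scaling raised the median by 0.07 and gave 436 higher and 502 lower genes, so the size of the gap depends on the scaling. Of the 378 higher genes 94 were at least 4-fold higher, and of the 610 lower genes 116 were at least 4-fold lower. Only at larger folds were higher genes more numerous, with 40 against 32 at 8-fold or more and 13 against 8 at 16-fold or more. The median fold was 2.67 among higher genes and 2.64 among lower genes. By RefSeq class, 351 of the higher and 597 of the lower genes were protein coding, and 16 and 9 were long non-coding RNAs. A small group of transcripts took a larger part of the treated library, since the 10 most counted genes held 5.13% of the counts in the control library and 9.16% at 1 ng/mL.

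**Figure D1:**
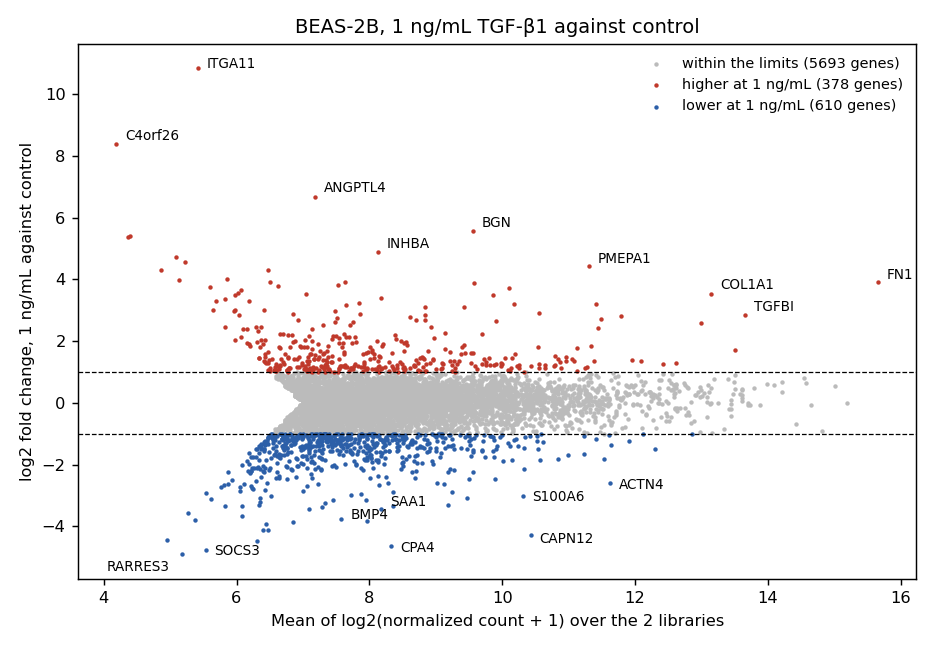
Each point is 1 of the 6681 genes that reached the minimum, with the mean of log2(normalized count + 1) over the control and the 1 ng/mL library on the x axis and the log2 fold change on the y axis; dashed lines mark a fold change of 2. The 378 higher genes (red) extend from low levels up to FN1 at the right edge, and the 610 lower genes (blue) are more numerous but reach smaller log2 fold changes.

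The label was checked against marker genes. The keratins KRT8, KRT18 and KRT7 were counted in the control library (372, 1418 and 1063 counts), but EPCAM was at 0 and CDH1, which codes for E-cadherin, at 2 counts. Of 8 listed markers of basal airway cells, KRT5, KRT14, KRT15, TP63 and DSG3 were at 0 and NGFR at 2 counts, while KRT17 (247 counts) and ITGA6 (166 counts) were counted. None of the 24 airway secretory genes reached the minimum. Markers of alveolar type II, immune and endothelial cells summed to at most 48 counts per list in these libraries. The 5 listed markers of ciliated cells summed to 280 counts in the control and 240 at 1 ng/mL. Of these, CAPS held 256 and 229, DNAH5 had 24 and 8, and FOXJ1 was at 0 in both. Of 8 listed fibroblast markers, PDGFRA, DCN, LUM, COL3A1 and COL6A3 were at 4 counts or fewer in the control, THY1 had 1160 and PDGFRB 118 (178 at 1 ng/mL), and FAP went from 15 to 162 counts. VIM, often used as a mesenchymal marker, had 1975 counts in the control cells. The control cells thus carried simple-epithelial keratins with EPCAM and CDH1 at or near 0. In RNA from a whole culture, fewer cells of a kind and less RNA per cell cannot be told apart.

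The feedback inhibitors and direct targets of the SMAD pathway were higher almost throughout. Of 19 listed genes, 13 reached the minimum, 12 were higher and 0 lower, with a median log2 fold change of 1.47. PMEPA1, an inhibitor that holds receptor-activated SMADs away from the receptor, went from 489 to 10397 counts, 21.4 times higher (19.6 to 23.5), and stood at 9453 counts at 5 ng/mL. SMAD7, the inhibitory SMAD, went from 15 to 125 counts, 8.41 times higher (4.91 to 15.5). TGFBI, a secreted adhesion protein named for its induction by TGF-β, went from 4298 to 30715 counts, 7.21 times higher (6.98 to 7.44). The repressors SKIL and SKI were 3.95 (3.17 to 4.98) and 2.37 (2.15 to 2.62) times higher, and the ubiquitin ligases SMURF1 and SMURF2 were 2.79 (2.09 to 3.77) and 2.16 (1.79 to 2.62) times higher. CDKN2B, the cell cycle inhibitor p15, was 2.21 times higher (1.87 to 2.62). The antisense transcript NKILA, 17.7 times higher (8.35 to 45.0), overlaps PMEPA1 on the opposite strand. Whether reads were counted by strand is not given in the sources used here, so reads from such a pair cannot be told apart. By an overlap of at least 50 exon bases in GENCODE on GRCh38, the same holds for COL4A2, LAMA5, P4HA2 and CYP51A1, each with its own antisense transcript, and for TAGLN (with PCSK7), AMIGO2 (with PCED1B), PLAU (with C10orf55), SOD2 (with WTAP and ACAT2), ERAP1 (with CAST), FEN1 (with TMEM258) and RPL9 (with LIAS). Among genes named below it also holds for KRT8 and KRT18 (with each other), VIM and ACTA2 (each with its antisense transcript), IRF1 (with C5orf56), RPL27A (with TRIM66), RPS27A (with CLHC1), SERF2 (with ELL3 and SERINC4) and RNASEH1-AS1 (with RNASEH1).

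The receptors and ligands moved less as a group. Of 12 ligands, receptors and latency proteins that reached the minimum, 3 were higher and 1 lower. TGFB1 itself went from 57 to 256 counts, 4.53 times higher (3.39 to 6.15). LTBP1, which stores latent TGF-β in the matrix, went from 31 to 158 counts, 5.14 times higher (3.48 to 7.82), and its relative LTBP2, listed with the targets, was 6.49 times higher (5.49 to 7.71). THBS1, which codes for thrombospondin 1, an activator of latent TGF-β, went from 714 to 1601 counts, 2.26 times higher (2.07 to 2.47), and stood at 1781 counts at 5 ng/mL. The signal transducer SMAD3 was lower, from 1189 to 556 counts, 2.12 times (1.92 to 2.35), and 559 counts were found at 5 ng/mL. TGFBR1 (222 to 341 counts), TGFBR2 (227 to 120 counts), SMAD2 (474 to 284 counts) and SMAD4 (224 to 220 counts) stayed within the limits.

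Activin and BMP genes moved in both directions. INHBA, the activin A subunit, went from 45 to 1351 counts, 30.3 times higher (22.5 to 41.7). The antagonists GREM1 and FSTL3 were 3.06 (2.37 to 3.99) and 2.53 (2.07 to 3.12) times higher. BMP4, a BMP ligand, went from 634 to 45 counts, 14 times lower (10.3 to 19.3), with 48 counts at 5 ng/mL. ID2 and ID3, transcriptional regulators that BMP signals induce, were 3.36 (2.52 to 4.55) and 2.24 (1.89 to 2.66) times lower, and ID1 went from 219 to 115 counts, within the limits. BMPR2, a BMP receptor, was 2.29 times higher (1.97 to 2.68). In all, 11 of the 22 listed genes reached the minimum, 5 higher and 3 lower.

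Matrix genes gave the largest rises in counts. FN1, which codes for fibronectin, went from 11970 to 177656 counts, 15.0 times higher (14.7 to 15.3), and from 0.281% to 3.86% of the library. COL1A1, the main chain of collagen I, went from 2398 to 27154 counts, 11.4 times higher (11 to 11.9). COL5A1 and COL27A1 were 7.02 (6.61 to 7.47) and 6.92 (5.76 to 8.36) times higher, so that 3 of the 4 fibrillar collagens at the minimum were higher and 0 lower. COL5A2 (323 to 491 counts) stayed within the limits. COL1A2, the partner chain of COL1A1 in collagen I, had few counts in each library (20 in the control, 68 at 1 ng/mL, 111 at 5 ng/mL) and did not reach the minimum, and COL3A1 had 3, 0 and 6 counts. The steep rise in collagen I transcripts was therefore one of COL1A1, with few counts of COL1A2 beside it.

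The basement membrane genes moved both ways. COL4A1 and COL4A2, the chains of collagen IV, were 6.24 (5.57 to 7.01) and 5.33 (4.99 to 5.69) times higher, and COL7A1, the anchoring fibril collagen, was 7.29 times higher (6.15 to 8.69). LAMA5 and LAMB2 were 9.13 (5.25 to 17.2) and 2.04 (1.57 to 2.67) times lower. COL8A1, a short-chain collagen, went the other way from its family, from 930 to 91 counts, 10.1 times lower (8.16 to 12.7). Of 8 collagens outside the fibrillar group at the minimum, 4 were higher and 1 lower. Of 5 laminins, 1 was higher and 2 were lower.

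Among proteoglycans and other glycoproteins, a few genes rose from very low counts. BGN, the small leucine-rich proteoglycan biglycan, went from 97 to 4611 counts, 48.0 times higher (39.2 to 59.3), with 4300 counts at 5 ng/mL. VCAN, the large proteoglycan versican, went from 43 to 617 counts, 14.5 times higher (10.6 to 20.2). SPOCK1 was 7.57 times higher (6.89 to 8.33), the crosslinking enzyme TGM2 5.45 times (4.65 to 6.4), tenascin C (TNC) 4.40 times (3.47 to 5.64) and SPARC 2.40 times (2.30 to 2.50). SDC4 and CSPG4, both cell surface proteoglycans, were 3.24 (3.01 to 3.48) and 3.97 (2.82 to 5.68) times lower, while SDC1 was 2.12 times higher (1.85 to 2.44). The glycoproteins MATN2 and FBLN2 were 10.6 (6.26 to 19.5) and 5.51 (3.85 to 8.09) times lower. Counts by list were 5 higher and 2 lower of 14 glycoproteins, and 3 higher and 3 lower of 10 proteoglycans.

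The proteases that cut the matrix and the enzymes that fold and crosslink collagen were read as separate lists. MMP2, the gelatinase that cuts basement membrane collagen, went from 177 to 2598 counts, 14.8 times higher (12.7 to 17.3). ADAMTS6, ADAM19 and ADAM12 were 6.26 (4.91 to 8.07), 3.92 (3.30 to 4.66) and 3.02 (2.75 to 3.32) times higher. PLAU, the urokinase that activates plasminogen, went from 316 to 17 counts, 18.4 times lower (11.3 to 32.0). In this list 5 of 10 genes were higher and 1 lower. Of 15 genes of collagen modification, folding and crosslinking, 3 were higher and 2 lower. FKBP10, a collagen chaperone, was the highest at 3.76 times (3.11 to 4.58), BMP1, the procollagen C-proteinase, was 2.62 times higher (2.25 to 3.06) and the prolyl hydroxylase P4HA2 2.21 times (2.06 to 2.37). LOX (261 to 285 counts) and SERPINH1 (748 to 746 counts) stayed within the limits.

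Integrins, the cell's matrix receptors, moved in both directions. ITGA11, a collagen-binding subunit, had 0 counts in the control library, 1621 at 1 ng/mL and 1353 at 5 ng/mL, and was at least 545-fold higher against a floor of 3 counts (the lower limit of its exact interval was 443). ITGAV and ITGA5, alpha subunits of vitronectin and fibronectin receptors, were 4.41 (3.52 to 5.59) and 3.51 (3.09 to 3.98) times higher. The beta subunits ITGB1 and ITGB5 stayed within the limits, with log2 fold changes of 0.94 and 0.43. ITGA6 and ITGB4, which together form the laminin receptor of hemidesmosomes, were 4.84 (3.33 to 7.22) and 3.03 (2.51 to 3.68) times lower. ITGA7, a laminin receptor subunit as well, was 2.28 times lower (1.67 to 3.14). Thus 3 of 9 integrins at the minimum were higher and 3 were lower (33.3% each, beside 5.66% and 9.13% of all genes). ITGA2 had 12 counts in the control and 111 at 1 ng/mL, below the minimum.

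**Figure D2:**
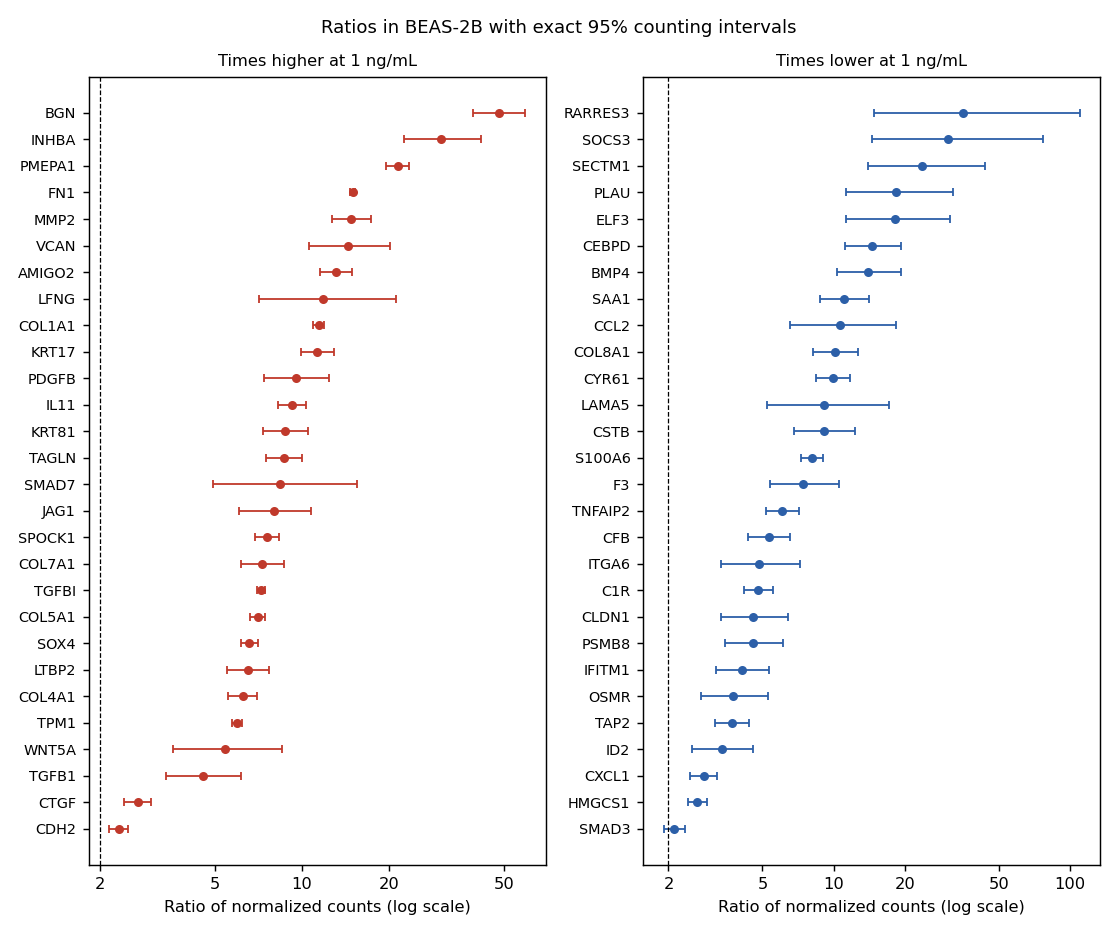
Points give the ratio of normalized counts of 28 genes that were higher (left) and 28 that were lower (right) at 1 ng/mL, on log axes, and bars give the exact 95% counting intervals; the dashed line marks a ratio of 2. Intervals are narrow for highly counted genes such as FN1 (14.7 to 15.3) and wide for genes with few counts in 1 library such as SOCS3 (14.6 to 77.0).

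The study ranked 13 genes as core genes of the response, and all 13 were higher at 1 ng/mL, with log2 fold changes of 1.18 (THBS1) to 3.90 (FN1) and a median of 2.85. That list was drawn from these same libraries and is no independent evidence of its direction. Among them CDH2, which codes for N-cadherin, went from 1046 to 2407 counts, 2.32 times higher (2.16 to 2.50).

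Some genes of the epithelial to mesenchymal programme were past the limits and others were not. Of 16 mesenchymal markers 9 reached the minimum, and 2 were higher: CDH2 and FAP, a fibroblast surface protease that went from 15 to 162 counts, 10.9 times (6.41 to 19.9). VIM (1975 to 2387 counts) and ACTA2, smooth muscle actin (63 to 69 counts, below the minimum), were within the limits or not read. Of the transcription factors known to drive the transition, SOX4 was 6.58 times higher (6.15 to 7.03), HMGA2 3.56 times (2.66 to 4.81) and TCF4 2.06 times (1.67 to 2.57), while SOX9 was 2.44 times lower (1.94 to 3.08). SNAI1 (7 to 36 counts) and SNAI2 (10 to 56 counts) did not reach the minimum, and ZEB1 (134 to 137 counts) and TWIST1 (40 to 35 counts) differed little in counts. On the epithelial side only 8 of 36 junction and polarity genes reached the minimum, 3 of them lower and 0 higher. ELF3, an epithelial transcription factor, went from 330 to 18 counts, 18.2 times lower (11.3 to 31.0), the tight junction gene CLDN1 was 4.58 times lower (3.33 to 6.41) and the desmosomal gene PKP3 2.67 times (1.95 to 3.70). Below the minimum, OCLN had 80 counts in the control and 8 at 1 ng/mL.

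Keratins moved both ways. Of 7 keratin and cornified envelope genes at the minimum 3 were higher and 0 lower, but 4 lay below 0 and the median log2 fold change was -0.39. KRT17, a keratin of basal and wounded epithelium, went from 247 to 2768 counts, 11.3 times higher (9.92 to 12.9), KRT81 was 8.72 times higher (7.31 to 10.5) and KRT7 2.81 times (2.62 to 3.02). KRT8 (372 to 204 counts) and KRT18 (1418 to 717 counts), the pair of simple epithelia, were lower in counts but within the limits. KRT19, listed with them as a simple-epithelial marker and below the minimum, went from 46 to 5 counts, 9.12 times lower (3.64 to 29.4). The basal markers KRT5, KRT14 and TP63 had at most 1 count at 1 ng/mL, so KRT17 was higher without them.

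Contractile genes were higher in a few members. TAGLN, an actin-binding protein of smooth muscle, went from 208 to 1786 counts, 8.66 times higher (7.5 to 10.0), and TPM1, a tropomyosin, from 2991 to 17667 counts, 5.96 times higher (5.73 to 6.2). PDLIM7, CNN1 and CALD1 were 3.09 (2.74 to 3.49), 2.77 (1.94 to 4.02) and 2.63 (2.50 to 2.76) times higher. With 5 of 32 genes higher (15.6%) and 2 lower (6.25%), beside 5.66% and 9.13% of all genes, the median log2 fold change of the list was 0.18. ACTN4, an actin crosslinker, went from 7000 to 1138 counts, 6.10 times lower (5.73 to 6.50). It shares exon sequence on the opposite strand with CAPN12, which went from 5466 to 275 counts, 19.7 times lower (17.5 to 22.3), and reads from the pair cannot be told apart.

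Secreted ligands were among the sharpest rises. ANGPTL4, a secreted lipase inhibitor, went from 12 to 1296 counts, 109 times higher (62.2 to 211), and FGF1 from 2 to 120 counts, 60.5 times higher (16.4 to 506). PDGFB, PDGFA and PDGFC, mitogens for mesenchymal cells, were 9.51 (7.37 to 12.4), 4.58 (3.81 to 5.54) and 2.55 (2.26 to 2.89) times higher, and VEGFA 3.83 times (3.22 to 4.56). EDN1, the endothelin 1 precursor, went from 5 to 114 counts, 23.0 times higher (9.57 to 72.2). IGFBP6 was 3.66 times lower (2.96 to 4.54). Of 18 growth factors and receptors at the minimum, 7 were higher and 1 lower, but ANGPTL4 and FGF1 reached it in the treated library only. WNT5A and WNT5B, ligands of the non-canonical WNT pathway, were 5.42 (3.57 to 8.50) and 4.71 (3.69 to 6.06) times higher. In all, 3 of 9 WNT genes were higher and 1 lower, with a median log2 fold change of 0.47. Of these, LRP6 (56 to 114 counts) reached the minimum in the treated library only and SFRP1 (254 to 107 counts) in the control only. With a minimum of 6, 3 of 13 WNT genes were higher and 3 lower, and the median was -0.47. In the Notch pathway the ligand JAG1 went from 56 to 444 counts, 8.0 times higher (6.05 to 10.8). The modifier LFNG was 11.9 times higher (7.11 to 21.2) and the target HES1 3.57 times (2.67 to 4.86). Of 8 Notch genes at the minimum 3 were higher and 0 lower, but these 3 reached it in the treated library only. With the minimum required in both libraries, 3 other Notch genes remained, 0 higher and 0 lower, with a median log2 fold change of -0.34.

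Apart from these lists, the 20 largest rises held NEDD9, a focal adhesion scaffold that went from 17 to 351 counts, 20.8 times higher (12.8 to 36.2), and LMCD1, a LIM domain protein, 15.4 times higher (11.4 to 21.3). ALOX5AP, the activating protein of leukotriene synthesis, went from 5 to 155 counts, 31.3 times higher (13.1 to 97.7). SSC5D, 27.1 times (12.2 to 74.9), the potassium channel subunit KCNG1, 14.3 times (9.34 to 22.8), and C1orf106, 17.2 times (9.65 to 33.9), were also among them. C4orf26, now named ODAPH, had 0 counts in the control, 296 at 1 ng/mL and 305 at 5 ng/mL, at least 99.5-fold higher against a floor of 3 counts (lower limit of the exact interval, 80.4). The non-coding transcripts LINC00312 (2 to 117 counts) and LINC01583 (20 to 314 counts) completed this set.

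Promoter sequence was read for the genes past the limits from RefSeq (build GRCh38.p14), from 250 bases before to 50 bases after the annotated start, with motifs searched on both strands. It was at hand for 288 of the higher and 495 of the lower genes. The SMAD element CAGACA was found in 17.0% of the higher and 12.7% of the lower genes' promoters, in 11.4% of those of all genes at the minimum and in 16.8% of all 27305 promoters. The AP-1 motif TGANTCA was in 4.86%, 4.85%, 4.03% and 7.76% of these sets. Of the 10 higher genes of the SMAD feedback and target list with a promoter sequence, 1 (SMURF2) held CAGACA. The SMAD palindrome GTCTAGAC was in 0 of the 288 higher and 2 of the 495 lower genes' promoters. A match describes letters in this window and is not a site in use. The stretches of the rising genes ODAPH, TNC, IL11 and CTGF (RefSeq CCN2) are shown because they hold CAGACA, the AP-1 motif or, for CTGF, the TEAD motif GGAATG. The TEAD motif was found in 14% of all promoters. Capitals mark the motif, which reads as its reverse complement in ODAPH and TNC.
ODAPH, chr4:75555897-75555952 (+): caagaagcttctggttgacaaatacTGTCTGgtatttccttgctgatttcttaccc
TNC, chr9:115118198-115118253 (-): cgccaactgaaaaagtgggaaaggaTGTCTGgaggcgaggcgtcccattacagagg
IL11, chr19:55370528-55370584 (-): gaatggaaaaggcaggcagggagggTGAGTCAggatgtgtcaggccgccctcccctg
CTGF, chr6:131951437-131951566 (-): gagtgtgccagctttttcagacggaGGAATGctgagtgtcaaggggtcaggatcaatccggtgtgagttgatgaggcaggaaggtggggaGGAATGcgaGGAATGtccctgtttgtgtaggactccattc

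CTGF, also called CCN2, is a matricellular protein and a shared target of SMAD and YAP/TEAD, and went from 459 to 1229 counts, 2.70 times higher (2.42 to 3.01). Its family member CYR61, another YAP/TEAD target, went from 1629 to 163 counts, 9.91 times lower (8.43 to 11.7). The YAP/TEAD list did not move one way: of 22 genes at the minimum 4 were higher, AMIGO2 by 13.1 times (11.6 to 14.9), ANKRD1 by 2.60 (1.84 to 3.72) and TEAD2 by 2.29 (2.08 to 2.53) beside CTGF, and 4 were lower, F3 (tissue factor) by 7.45 times (5.36 to 10.6), AMOTL2 by 2.62 (2.23 to 3.09) and LATS2 by 2.01 (1.58 to 2.58) beside CYR61. The median log2 fold change was -0.19. Among the immediate early genes, JUNB was 2.62 times higher (2.28 to 3.02) and IER3 3.30 times (3.20 to 3.40), and the phosphatase DUSP4 2.32 times lower (1.94 to 2.80).

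**Figure D3:**
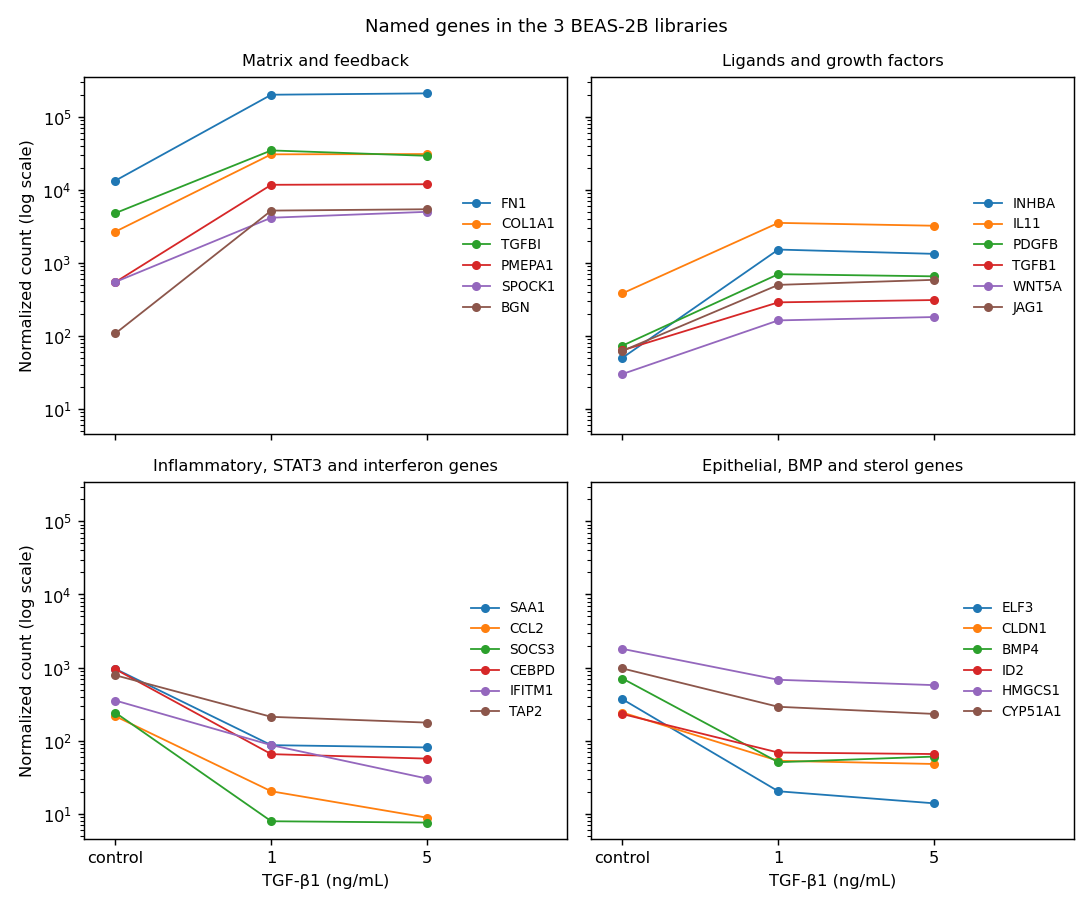
Normalized counts (log scale) of 24 named genes in the control, 1 ng/mL and 5 ng/mL BEAS-2B libraries, 1 library each, with doses drawn as categories and lines only joining the 3 values of a gene. The step from the control to 1 ng/mL is larger than the step from 1 to 5 ng/mL for each of the genes drawn. All 24 were chosen among genes past the limits at 1 ng/mL, so a large first step was given by the choice and says nothing of other genes.

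Genes of inflammation were mostly lower. Of 47 listed genes, 20 reached the minimum, 11 were lower and 2 higher, with a median log2 fold change of -1.13 beside 0.01 over all genes. SAA1, an acute phase protein, went from 859 to 77 counts, 11.1 times lower (8.75 to 14.2), and 64 counts were found at 5 ng/mL. CCL2, the monocyte chemokine, went from 193 to 18 counts, 10.6 times lower (6.55 to 18.3). CXCL1, a neutrophil chemokine, went from 926 to 326 counts, 2.82 times lower (2.48 to 3.20), and CXCL8 from 324 to 197 counts, within the limits. TNFAIP2 was 6.06 times lower (5.19 to 7.12), the pattern recognition protein PTX3 4.44 times (2.99 to 6.79), the superoxide dismutase SOD2 3.02 times (2.69 to 3.40) and NFKBIA, the NF-κB inhibitor that NF-κB itself induces, 2.39 times (2.21 to 2.58). Complement genes, of which CFB and C3 also count among the 11, were lower too: CFB by 5.31 times (4.35 to 6.53), C1R by 4.79 (4.16 to 5.53), C3 by 2.91 (2.59 to 3.27) and C1S by 2.46 (1.84 to 3.33). The list of complement and antiproteases had 5 of 8 genes lower and 0 higher. The other 7 inflammatory genes at the minimum, CXCL8 among them, were within the limits. TNFAIP3, ICAM1, RELB and NFKB2 had log2 fold changes of 0.37, 0.05, 0.03 and -0.22, and NFKB1 and BCL3 of -0.73 and -0.89. The 2 higher inflammatory genes were IL11 and IL32. IL11, a cytokine that TGF-β is known to induce in stromal cells, went from 343 to 3132 counts, 9.21 times higher (8.24 to 10.3). IL32 was 2.68 times higher (2.33 to 3.09).

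The STAT3 feedback gene SOCS3 went from 216 to 7 counts, 30.6 times lower (14.6 to 77.0), and stood at 6 counts at 5 ng/mL. CEBPD, an acute phase transcription factor, went from 850 to 58 counts, 14.5 times lower (11.1 to 19.3). OSMR, the oncostatin M receptor, was 3.77 times lower (2.75 to 5.25) and the kinase JAK1 2.14 times (1.88 to 2.45). STAT3 itself (534 to 566 counts) was within the limits. Of 9 genes in this list at the minimum, 4 were lower (44.4%, beside 9.13% of all genes) and 1, JUNB, higher (11.1%, beside 5.66%). With the minimum required in both libraries, 6 genes of the list remained, 1 higher and 1 lower. Their median log2 fold change was 0.13.

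Interferon-stimulated genes were lower as well. Of 20 at the minimum, 12 were lower and 0 higher, and 1 of the 20 lay above 0, with a median log2 fold change of -1.09. The lowest were RARRES3 (178 to 5 counts, 35.3 times lower, 14.8 to 110) and SECTM1 (335 to 14 counts, 23.7 times lower, 13.9 to 43.9). The antiviral membrane proteins IFITM1, IFITM2 and IFITM3 were 4.08 (3.17 to 5.31), 3.70 (3.34 to 4.10) and 2.09 (1.96 to 2.22) times lower, and these paralogs share sequence, so their split is uncertain. BST2, which tethers budding virus, was 4.69 times lower (3.15 to 7.21) and the antiviral synthetase OAS3 2.68 times (2.03 to 3.57). IRF1 (678 to 352 counts) and IFI6 (590 to 334 counts) were within the limits. DTX3L and PARP9, 4.33 (3.53 to 5.36) and 2.19 (1.59 to 3.07) times lower, overlap on opposite strands.

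In antigen presentation by MHC class I, several genes that make, trim or transport peptides were lower. TAP2, a peptide transporter subunit, went from 703 to 188 counts, 3.71 times lower (3.15 to 4.38). Its partner TAP1 was within the limits, with a log2 fold change of -0.77. PSMB8 and PSMB9, subunits of the immunoproteasome, were 4.57 (3.48 to 6.08) and 3.62 (2.94 to 4.49) times lower, and each overlaps the transcript PSMB8-AS1. The immunoproteasome subunit PSMB10 was within the limits, at 0.38. Of the proteasome activator subunits, PSME1 was lower (-1.04) and PSME2 within the limits (0.32). The peptide trimming enzymes ERAP2 and ERAP1 were 2.17 (1.71 to 2.78) and 2.01 (1.66 to 2.43) times lower. HLA-B (4273 to 2396 counts), HLA-C (1582 to 1196 counts) and B2M (6206 to 4130 counts) had log2 fold changes of -0.82, -0.39 and -0.57, within the limits. In the peptide loading complex, tapasin (TAPBP, 1240 to 683 counts) and calreticulin (CALR, 6016 to 5354 counts) were within the limits, with log2 fold changes of -0.85 and -0.16, and PDIA3 was 2.02 times higher (1.85 to 2.22). Of 17 genes, 6 were lower and 1, PDIA3, higher, and the median was -0.77.

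The promoters of these lower genes were searched for the interferon-stimulated response element (ISRE, GAAANNGAAA) and, by name, for the kappa-B site. The ISRE was found in 4.65% of the promoters of lower genes, 0.694% of higher genes, 2.74% of genes at the minimum and 3.65% of all promoters. Among the interferon-stimulated genes it was in 6 of 7 lower genes with a promoter sequence and in 4 of 8 genes within the limits. It was in 3 of 6 lower genes of the MHC class I list. The kappa-B site was found in 4 of 6 lower inflammatory genes with a promoter sequence, against 16.8% of lower genes, 11.5% of higher genes and 13.3% of genes at the minimum. Genes regulated by interferon or NF-κB are known to carry these motifs, so the shares describe the lists and are not independent findings. Stretches before the start site are shown for lower genes so that the motifs can be seen in place. Capitals mark the ISRE in IFITM1, IFITM3, BST2 and TAP2, overlapping copies in BST2, and the kappa-B site in CXCL1, NFKBIA and PTX3.
IFITM1, chr11:313975-314034 (+): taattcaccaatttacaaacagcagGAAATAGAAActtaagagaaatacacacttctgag
IFITM3, chr11:320861-320937 (-): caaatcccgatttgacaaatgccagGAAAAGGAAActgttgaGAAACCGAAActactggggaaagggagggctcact
BST2, chr19:17405720-17405785 (-): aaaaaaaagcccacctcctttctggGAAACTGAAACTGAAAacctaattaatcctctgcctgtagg
TAP2, chr6:32838763-32838822 (-): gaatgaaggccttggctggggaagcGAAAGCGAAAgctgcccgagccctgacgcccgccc
CXCL1, chr4:73869289-73869349 (+): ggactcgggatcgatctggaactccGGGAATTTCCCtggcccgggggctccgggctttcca
NFKBIA, chr14:35404796-35404855 (-): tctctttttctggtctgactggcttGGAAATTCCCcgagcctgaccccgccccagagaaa
PTX3, chr3:157436728-157436788 (+): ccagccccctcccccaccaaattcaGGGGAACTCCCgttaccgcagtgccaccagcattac

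Among the 20 largest falls outside these lists, CPA4, a secreted carboxypeptidase, went from 1440 to 56 counts, 25.5 times lower (19.5 to 33.9). MGST1, a membrane glutathione transferase, was 14.9 times lower (10.0 to 23.2), the protease inhibitor SERPINB9 15.1 times (7.72 to 33.7), FAM129A 13.3 times (7.98 to 23.6) and the aldehyde oxidase AOX1 13 times (6.62 to 29.1). NCSTN, a subunit of γ-secretase, went from 129 to 5 counts, 25.6 times lower (10.7 to 80.1), and shares exon sequence with COPA on the opposite strand. FLJ44635 (400 to 36 counts) and C5orf15 (452 to 42 counts) completed the set.

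Sterol synthesis genes were lower in part. Of 30 genes of cholesterol and fatty acid synthesis at the minimum, 8 were lower and 0 higher (26.7% against 9.13% of all genes), with a median log2 fold change of -0.69. The sterol element TCACNCCAC was in 0 of the 5 lower genes with a promoter sequence and in 1.07% of genes at the minimum. HMGCS1, an early enzyme of the sterol pathway, went from 1614 to 604 counts, 2.65 times lower (2.41 to 2.91), and CYP51A1, a later one, from 871 to 258 counts, 3.35 times lower (2.91 to 3.86). INSIG1, a brake on sterol synthesis (674 to 338 counts, log2 fold change -0.98), lay just inside the limit, and the fatty acid synthase FASN (1944 to 1690 counts) had a log2 fold change of -0.19. Among the NRF2 targets, which protect against oxidants, TXNRD1, NQO1 and GSR were 3.93 (3.15 to 4.96), 3.17 (2.56 to 3.95) and 2.49 (1.84 to 3.42) times lower, and HMOX1 was 6.87 times higher (5.25 to 9.12), with 5 of 19 genes lower and 1 higher.

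Genes of amino acid supply were higher in part. Of 20 genes of the ATF4, serine-glycine and proline pathways, 5 were higher (25%) and 1 lower (5%), beside 5.66% and 9.13% of all genes. ASNS, the asparagine synthetase, was 4.11 times higher (3.06 to 5.59), PYCR1, the last enzyme of proline synthesis, 2.30 times (2.06 to 2.58), PHGDH, which opens the serine pathway, 2.22 times (1.81 to 2.73) and ATF4 itself 2.18 times (2.05 to 2.32). In the secretory pathway 4 of 32 genes were higher (12.5%) and 2 lower (6.25%). Among them SEC24D, a coat protein for large cargo, was 3.79 times higher (2.56 to 5.75), KDELR3 2.66 times higher (2.11 to 3.38) and MANF 2.79 times lower (2.40 to 3.24).

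Few cell cycle genes were past the limits. Of 35 DNA replication genes 3 were lower (8.57%) and 0 higher, and of 42 mitosis genes 3 were lower (7.14%) and 0 higher, shares close to the 9.13% of all genes, with medians of -0.36 and -0.44. FEN1, the flap endonuclease, was 2.65 times lower (2.43 to 2.91) and MCM2, a helicase subunit, 2.13 times (1.90 to 2.39), while MKI67 (2327 to 1985 counts) and TOP2A (10443 to 9027 counts) were within the limits. CDKN1A, the inhibitor p21, went from 640 to 1209 counts and CCND1, cyclin D1, from 193 to 380, with log2 fold changes of 0.93 and 0.99. GDF15, a stress-induced cytokine of the TGF-β family, was 3.59 times higher (2.96 to 4.37), RB1 4.39 times lower (2.99 to 6.61) and CDKN1B 2.03 times lower (1.67 to 2.47), and the list held 5 higher and 4 lower of 29 genes. Cytosolic ribosomal protein genes had a median of 0.40, with 2 of 62 past the limits, RPL9 and RPS27, both higher. Respiratory chain genes had 3 of 46 lower (6.52%) and glycolysis genes 2 of 27 lower (7.41%), shares under the 9.13% of all genes, with 0 higher in either list. S100 proteins and metallothioneins had 2 higher and 3 lower of 9, with S100A6 8.11 times lower (7.30 to 9.02) and MT1X 3.74 times higher (2.86 to 4.96). Of the 3 prostaglandin genes at the minimum, PTGES, a prostaglandin E synthase, was 4.37 times lower (3.26 to 5.95).

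**Figure D4:**
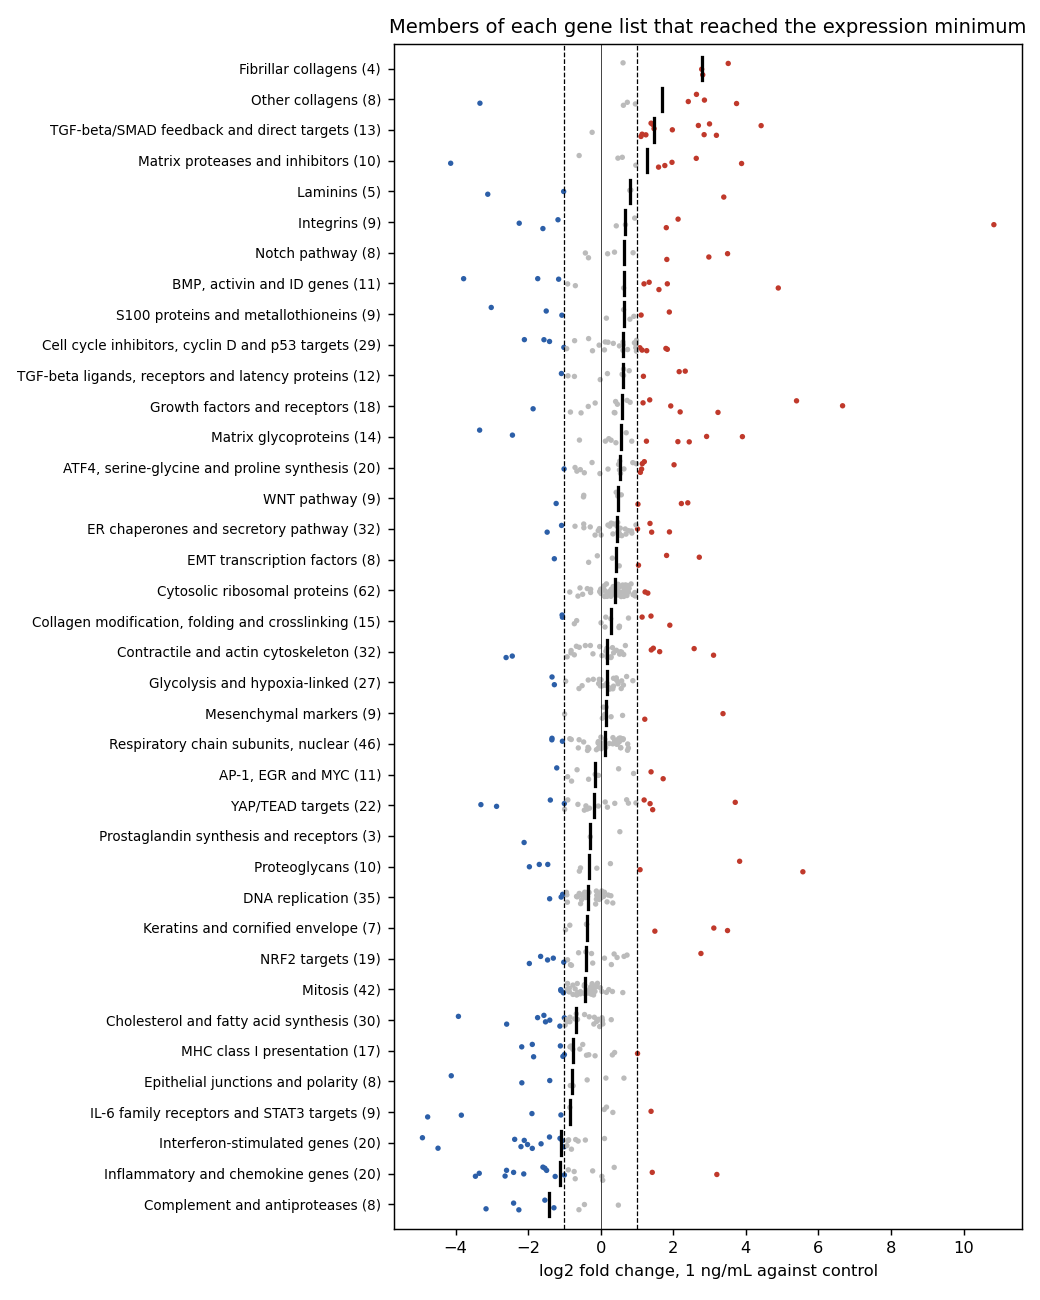
Each point is the log2 fold change at 1 ng/mL of 1 list member that reached the minimum (red higher, blue lower, grey within the limits), black bars are list medians, and the number after each name is how many members are drawn. Lists are ordered by median, from 2.80 for the 4 fibrillar collagens to -1.41 for the 8 complement and antiprotease genes, and dashed lines mark a fold change of 2.

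By difference in CPM, the 10 largest gains were FN1, TGFBI, COL1A1, TPM1, IER3, PMEPA1 and COL5A1, all higher, and RPL27A, RPS27A and MT2A, with log2 fold changes of 0.81, 0.54 and 0.63. The 10 largest losses were ACTG1, TUBA1B, RPS29, SERF2 and CCDC80, with log2 fold changes of -0.92, -0.68, -0.85, -0.97 and -0.94, and ACTN4, CAPN12, HINT1, TAPT1-AS1 and EEF1A1, which were past the limits. HINT1 was 2.82 times lower (2.70 to 2.95) and EEF1A1 3.53 times lower (3.33 to 3.75). ACTG1, EEF1A1, the ribosomal protein genes, KRT81, SAA1 and other genes with near-identical copies are uncertain, since how reads from copies were assigned is not given in the sources used here.

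The 5 ng/mL library shares the control with the comparison above, so its folds are not independent of it. Only 8 of the 988 genes had a fold change at 5 ng/mL below 1.2 in the same direction. The 5 with the largest change at 1 ng/mL were CNIH2 (78 counts in the control, 206 at 1 ng/mL, 82 at 5 ng/mL), the histone methyltransferase EZH1 (136, 62 and 104 counts), ZCCHC7 (66, 138 and 69 counts), RNASEH1-AS1 (59, 122 and 43 counts) and CCDC102A (59, 121 and 52 counts). All were low in counts, and they were picked by their difference between the doses. Set directly against the 1 ng/mL library, the 5 ng/mL library had a ratio of 1.04 (1.04 to 1.05) for FN1, 1.01 (0.992 to 1.03) for COL1A1 and 1.02 (0.990 to 1.05) for PMEPA1. It was 1.25 (1.16 to 1.33) for THBS1 and 1.25 (1.23 to 1.28) for TPM1, and below 1 for TGFBI, 0.844 (0.830 to 0.858), MMP2, 0.863 (0.814 to 0.916), and INHBA, 0.873 (0.805 to 0.947). Among lower genes, SOCS3 stood at 0.959 (0.266 to 3.33) and CCL2 at 0.435 (0.154 to 1.09).

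The A549 comparison at the same dose shares no library with this one. There 1649 of 7007 genes (23.5%) were past the limits, 766 (10.9%) higher and 883 (12.6%) lower. Genes past the limits in both lines numbered 351, which is 35.5% of the BEAS-2B and 21.3% of the A549 genes. These shares count genes that were not read in the other line. All 351 lie among 5747 genes that reached the minimum in both lines, of which 733 were past the limits in BEAS-2B and 1076 in A549. Of the 351, 124 were higher in both (32.8% of the higher BEAS-2B genes, 16.2% of those in A549) and 207 were lower in both (33.9% and 23.4%). The other 20 had opposite directions (2.02% of the BEAS-2B and 1.21% of the A549 genes past the limits). The shared rises included INHBA, PMEPA1, ITGA11, COL1A1 and MMP2, with log2 fold changes in A549 of 4.94, 2.19, 4.87, 4.48 and 5.43. FN1 had a log2 fold change of 3.90 in BEAS-2B and 1.26 in A549. The shared falls included SOCS3, PLAU, ELF3, BMP4 and CEBPD, with log2 fold changes in A549 of -2.73, -2.74, -2.18, -2.29 and -1.67. Of the 988 BEAS-2B genes, 255 did not reach the minimum in A549, 96 of them higher genes such as BGN (1 to 21 counts in A549) and FGF1 (0 to 18 counts). JAG1, NEDD9 and EDN1 were past the limits in BEAS-2B and not in A549, where their log2 fold changes were 0.27, 0.06 and -0.60. VCAN lay just inside the limit in A549 (0.98), and SMAD7 (24 to 95 counts, 1.2) passed the fold limit there but not the minimum. No test of the difference between the lines was possible.

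**Figure D5:**
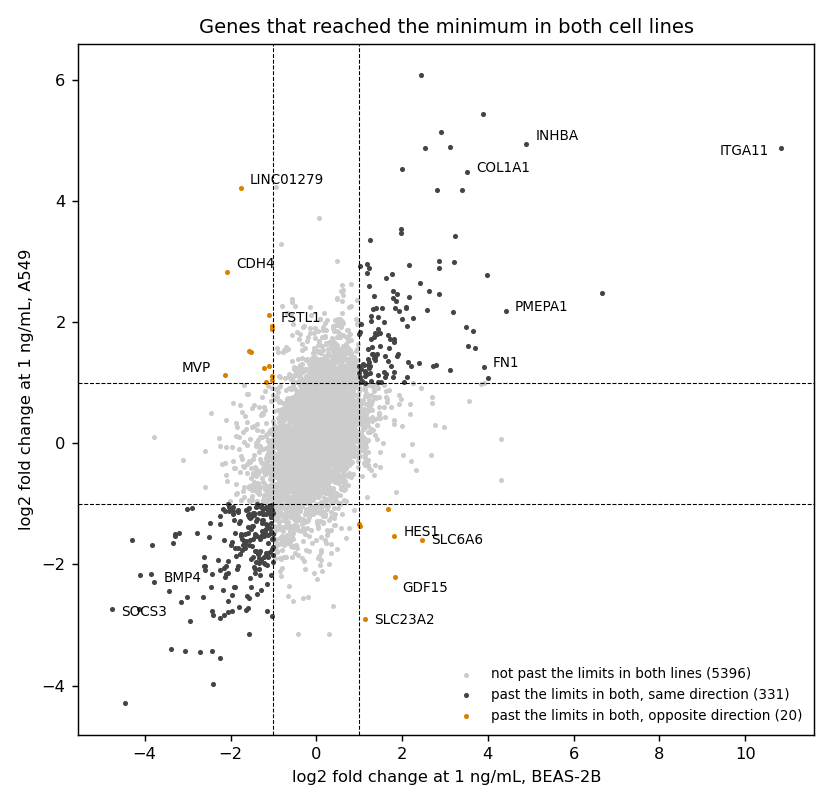
Log2 fold change at 1 ng/mL in BEAS-2B (x axis) and A549 (y axis) of 5747 genes, those above the minimum in each line, with dashed lines at a fold change of 2. Dark points are the 331 genes past the limits in both lines in the same direction, and orange points are the 20 with opposite directions, such as CDH4, GDF15 and HES1.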

How the data were processed

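The authors deposited raw read counts per gene symbol for each library. Per the labels these came from Bowtie2 and bedtools on hg19, versions not given in the sources used here, from QuantSeq 3′ libraries. Counts of the 6 libraries were scaled with edgeR 4.0.16 TMM factors, and calls, ratios and intervals were computed in Python 3.11.15 with scipy 1.17.1. Depth was 4252712 and 4601813 counts in the compared libraries, and 3 counts were taken as the floor. 286 symbols had more than 1 entry and were kept apart. The genome at hand was GRCh38, so no coordinates of counted features are given and it served for overlaps, GC content and promoters only. The text names the 20 largest rises and falls, members of the gene lists, the 10 largest differences in CPM each way, genes opposite between the lines and genes lost at 5 ng/mL. The members and lists were chosen with earlier results of these data known. Alternatives were other scalings (DESeq2 1.42.0 size factors among them), filters, pseudocounts, thinning and limits. Some named genes are not reported here.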

Additional observations from a re-analysis of the deposited data

Results flagged for a closer look

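In 20 genes the change at 1 ng/mL was past the limits in both cell lines in opposite directions, with 1 library a side, so the difference between the lines was not tested. Higher in BEAS-2B, with log2 fold changes in BEAS-2B and then A549, were SLC6A6, the taurine transporter (2.47 and -1.60), GDF15 (1.84 and -2.22), HES1 (1.82 and -1.54), the bradykinin receptor BDKRB2 (1.67 and -1.08), the vitamin C transporter SLC23A2 (1.13 and -2.90), the WNT co-receptor LRP6 (1.03 and -1.36) and EPB41 (1.01 and -1.34). Lower in BEAS-2B were MVP, the major vault protein (-2.13 and 1.12), CDH4, R-cadherin (-2.08 and 2.82), LINC01279 (-1.76 and 4.22), DTX2 (-1.58 and 1.52), SIGIRR (-1.53 and 1.51), the WNT antagonist SFRP1 (-1.23 and 1.24), PLCB3 (-1.18 and 1.01), BTN3A1 (-1.10 and 1.27), GNG4 (-1.10 and 2.12), TMEM91 (-1.04 and 1.89), FSTL1 (-1.04 and 1.94), CHMP1A (-1.02 and 1.11) and LENG1 (-1.02 and 1.05). Several lay at the limit in BEAS-2B: the counts of CHMP1A were 204 in the control and 99 at 1 ng/mL, and its ratio of 2.04 times lower had a counting interval of 1.60 to 2.62. FSTL1, which was well counted, went from 4024 to 1942 counts in BEAS-2B, 2.05 times lower (1.95 to 2.17), and from 134 to 870 counts in A549. GDF15 went from 137 to 487 counts in BEAS-2B and from 1367 to 495 in A549. SLC6A6, EPB41, LENG1 and DTX2 share exon sequence with a transcript on the opposite strand (GRIP2, TMEM200B, CNOT3 and FDPSP2), whose reads cannot be told apart from theirs.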

How the results depend on the processing

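No paired analysis was possible because each condition had 1 library. Counts moved by over 1.5 times with the expression minimum and the fold limit. The counts of all, higher, lower and both-line genes, 988, 378, 610 and 351 as reported, were 448, 185, 263 and 130 with the minimum required in both libraries, 604, 245, 359 and 204 with a minimum of 8, 272, 124, 148 and 89 with the minimum on log2(CPM + 1), 2310, 1014, 1296 and 993 at a fold limit of 1.5, and 368, 153, 215 and 115 at a limit of 3. A minimum of 6 gave 1499 in all, 952 lower and 553 in both lines. Under the other alternatives all 4 counts stayed within 1.5 times, including 2 added after seeing the data (entries of 1 symbol summed, and a trend over GC content removed); the both-line count was not run with scaling on the 2 libraries alone. The 218 named genes followed here were all past the limits to begin with, and were run under 10 alternatives that kept the minimum and the fold limit. A change of sign was therefore hardly possible, and none occurred. Of these genes, 35 were no longer past the limits under at least 1 alternative. Of 39 list medians under 16 alternatives, 14 of 624 values changed sign: respiratory chain genes (-0.0094 with total counts); with the minimum in both libraries IL-6 and STAT3 genes (0.13), Notch genes (-0.34) and prostaglandin genes (0.12); at a minimum of 6 laminins (-0.27) and WNT genes (-0.47); at a minimum of 8 keratins (0.55), AP-1 genes (0.17) and YAP/TEAD targets (0.029); and with the minimum on CPM proteoglycans (0.68), epithelial junction genes (0.64), keratins (1.49), AP-1 genes (0.49) and YAP/TEAD targets (0.19). Other members enter such lists under each minimum. At this depth a gene at the minimum rests on about 113 counts.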
